A study of Mus musculus with 2 samples.

Results

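The genes described here encode conjugating and antioxidant enzymes of the mouse kidney, read in 1 Mxi1 +/+ animal (the control) and 1 Mxi1 -/- animal (the experiment), both labelled 1Y. They were chosen by symbol from the platform's annotation: every gene whose symbol starts with Gst, Mgst, Ugt, Sult, Gpx, Prdx or Txn, together with Nqo1, Hmox1 and Ephx1. The rule found 69 genes on 70 probes, of 10208 genes named on the array, and used no measured value. Each kidney was hybridised as biotin-labelled cRNA to 1 single-colour CodeLink array. Mxi1 belongs to the MXD proteins, which pair with MAX and counteract MYC on E-box sequences. The labels give no further treatment, and they name no strain, no sex and no deleted segment of Mxi1. Each genotype is 1 animal, so the spread between animals is unknown, and the differences below carry no p-value and no SD.

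Conjugation makes foreign and waste molecules water-soluble so that liver and kidney can export them. Glutathione S-transferases (Gst, and the membrane-bound Mgst) attach glutathione, UDP-glucuronosyltransferases (Ugt) attach a sugar, and sulfotransferases (Sult) attach sulfate. Glutathione peroxidases (Gpx) and peroxiredoxins (Prdx) destroy peroxides, the latter with electrons from thioredoxin (Txn), which thioredoxin reductase (Txnrd) recharges from NADPH. Many of these genes answer to NRF2, a transcription factor held back by KEAP1 until oxidants or electrophiles appear, and the proximal tubule is rich in several of them. The symbol rule also takes in relatives with other work, among them Txnl4a (a splicing factor), Txndc9 (a regulator of chaperonin folding) and Ugt8a (a galactosyltransferase of myelin lipid synthesis).

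Values are the deposited linear intensities, and a difference is the centred log2 value of Mxi1 -/- less that of Mxi1 +/+, each array being centred on its own median. A fold is that difference on the linear scale, so it can depart slightly from the ratio of the printed intensities. Of the 69 genes, 48 reached the median probe in mean level and 21 lay below it. The noise floor was 0.102 in the control kidney and 0.156 in Mxi1 -/-. The only error available is technical and lies within the arrays: over 41 genes with a pair of probes at this level, the differences of single probes had a standard deviation of 0.17 (log2), so that 2 such deviations correspond to 1.26-fold. This holds no variation between animals or hybridizations. The probe of Mxi1 itself read 4.31 with the gene intact and 1.69 in Mxi1 -/-, or 2.54-fold lower, which checks the labels in direction only. The 23 measured proximal tubule markers summed to 2269 in the control kidney and 2594 in Mxi1 -/-, with none under both floors. Of the 22 at or above the median level 12 were higher and 10 lower, with a median of 0.02.

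The conjugation and antioxidant genes differed between the 2 kidneys about as much as named genes in general did. Of the 48 genes that reached the median level none was 2-fold higher or lower, where the share of all 5737 named genes at that level past the line was 0.558% on the higher side and 1.39% on the lower. At 1.5-fold, 1 gene was higher (Ugt2b38) and 2 were lower (Hmox1 and Gstm2), beside 2.41% and 5.26% of all genes. In all 18 were higher and 30 lower. The median was -0.10 (log2), beside -0.06 for all genes, and 62.5% were lower, beside 59.9% of all genes. The median absolute difference was 0.18 for both sets. Beyond 2 technical deviations lay 22.9% of the 48 genes (3 higher and 8 lower) and 24.1% of all genes. These shares lie near the background at each line. Log2 intensity in one kidney followed that in the other with r = 0.991 over the 48 genes (Pearson, across genes that share both arrays and are not replicates). Over the 19663 probes above 0 in both arrays, dim ones included, r was 0.946. Such an r rises with the range of levels between genes, and no value was taken for all genes at the same level. It therefore does not set these genes apart.

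**Figure D1:**
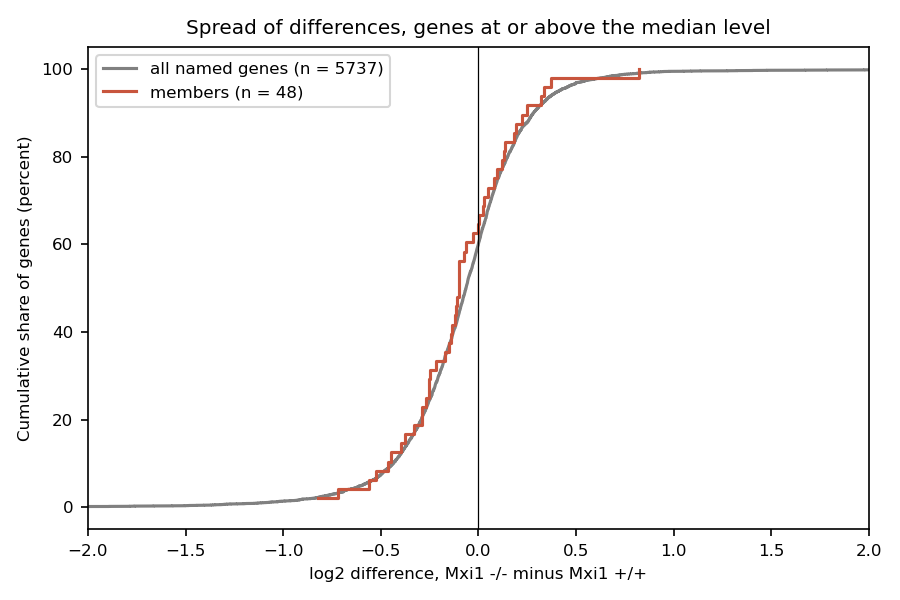
Cumulative share of genes (percent) against the log2 difference, Mxi1 -/- minus Mxi1 +/+, for the 48 conjugation and antioxidant genes and for all 5737 named genes at or above the median level. The 2 curves run together, and 21 of all genes, past 4-fold, lie beyond the axis.

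The alpha class of glutathione transferases, which conjugates products of lipid peroxidation, was lower in all 4 of its genes, with a median log2 difference of -0.26. Gsta4, whose product conjugates the lipid aldehyde 4-hydroxynonenal, read 45.5 in the control kidney and 31.7 in Mxi1 -/-, a 1.44-fold lower value. Gsta1 read 205.6 and 170.9 (1.20-fold lower). Gsta3, known in the mouse for conjugating activated aflatoxin, read 30.1 and 25.3 (1.19-fold lower). Of the 4, only Gsta4 lay beyond 2 technical deviations. Gsta2 read 162.3 and 150.1 (1.08-fold lower). How far each probe also reads other genes of the class was not tested.

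In the mu class 4 of 5 genes were lower. The class had a median of -0.29, beside -0.06 for all named genes at or above the median level. Gstm2 was the lowest, at 16.0 in the control kidney and 9.71 in Mxi1 -/- (1.65-fold lower). Gstm5 read 72.6 and 57.8 (1.26-fold lower). Gstm7 read 3.29 and 2.69 (1.22-fold lower) and Gstm4 read 9.14 and 8.12 (1.13-fold lower). Gstm1 ran the other way, at 122.9 in the control kidney and 153.6 in Mxi1 -/- (1.25-fold higher). Gstm1 and Gstm2 thus lay on opposite sides, although the mouse RefSeq annotation places them next to each other with no coding gene between. Of the 5 genes only Gstm2 lay beyond 2 technical deviations, and Gstm5 and Gstm1 lay just within them. Mu genes are close paralogs, and how far each probe also reads its relatives was not tested.

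The remaining glutathione transferases were close together in the 2 kidneys. Gstp1, the pi-class gene, read 127.0 and 118.6 in Mxi1 +/+ and Mxi1 -/- (1.07-fold lower). Gstz1, whose product isomerises maleylacetoacetate in tyrosine breakdown, read 115.7 and 99.5 (1.16-fold lower). None of these readings departed by 2 technical deviations. The theta genes Gstt1 (56.0 and 59.7) and Gstt2 (5.67 and 6.16) were 1.07-fold and 1.09-fold higher. Gstt3, which neighbours Gstt1, read 31.2 and 29.2 (1.07-fold lower). The omega genes, whose products reduce dehydroascorbate, read 10.3 and 9.44 for Gsto1 and 5.02 and 5.11 for Gsto2. The membrane-bound enzymes Mgst1 (7.82 and 7.26) and Mgst3 (70.8 and 67.4) were 1.08-fold and 1.05-fold lower. Over all 16 Gst genes at this level 4 were higher and 12 lower (median -0.15), beside 59.9% of all named genes lower (median -0.06).

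**Figure D2:**
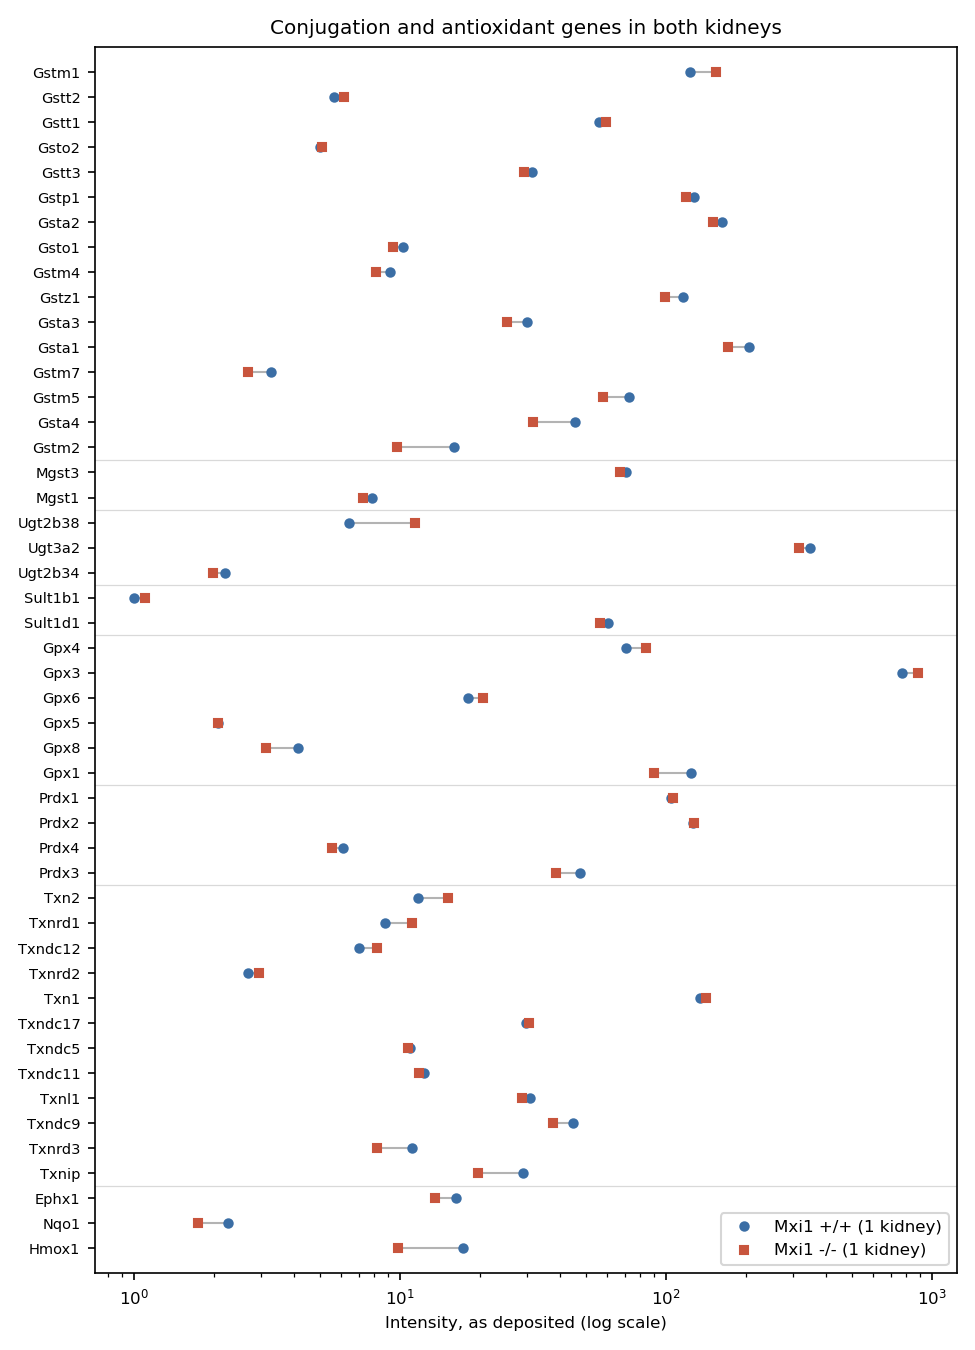
Deposited intensity (log scale) of each of the 48 conjugation and antioxidant genes that reached the median level, with a circle for the Mxi1 +/+ kidney and a square for the Mxi1 -/- kidney, 1 array each and no error bars. Families are separated by thin lines; the widest gaps belong to Hmox1, Ugt2b38 and Gstm2, and none reaches 2-fold.

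Of the 8 glucuronosyltransferase genes 3 lay at or above the median level. Ugt2b38 read 6.44 in the control kidney and 11.4 in Mxi1 -/-, at 1.77-fold the only gene more than 1.5-fold higher among the 48 that reached the median level. Ugt3a2, whose human counterpart transfers sugars other than glucuronic acid, read 347.8 and 316.0 (1.10-fold lower). Ugt2b34 read 2.21 and 1.99 (1.11-fold lower). The Ugt2b genes are close paralogs too, and the difference of Ugt2b38 rests on 1 probe. Of the 9 sulfotransferase genes 2 lay at this level. Sult1d1, which sulfates catecholamines in the mouse, read 60.4 and 56.5 (1.07-fold lower). Sult1b1, a sulfotransferase of thyroid hormones, read 1.00 and 1.10 (1.10-fold higher).

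Among the glutathione peroxidases 4 genes were higher and 2 lower. Gpx1, the cytosolic selenoenzyme, read 123.8 in the control kidney and 89.9 in Mxi1 -/- (1.38-fold lower). Gpx8, of the endoplasmic reticulum, read 4.14 and 3.15 (1.31-fold lower). Both lay beyond 2 technical deviations. Gpx4, which reduces lipid peroxides in membranes and holds off ferroptosis, read 70.5 and 83.8 (1.19-fold higher). Gpx3, the secreted form that the proximal tubule supplies to plasma, read 773.5 and 883.5 (1.14-fold higher). Its Mxi1 -/- reading was the highest value on that array, and the table carries no saturation flags. Gpx6 read 18.0 and 20.4 (1.14-fold higher), and Gpx5, known from the epididymis, read 2.08 in both kidneys. How far their probes also read other Gpx genes was not tested.

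Cytosolic peroxiredoxins read almost alike. Prdx1 read 104.0 in the control kidney and 106.0 in Mxi1 -/-, and Prdx2 read 126.8 and 126.9. The mitochondrial Prdx3 read 47.3 and 38.7 (1.22-fold lower) and Prdx4, of the endoplasmic reticulum, 6.12 and 5.57 (1.10-fold lower).

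The thioredoxin system itself held genes on both sides. Txn2, the mitochondrial thioredoxin, read 11.7 in the control kidney and 15.2 in Mxi1 -/- (1.29-fold higher). Txnrd1, the cytosolic reductase, read 8.78 and 11.1 (1.26-fold higher). Both were higher by slightly more than 2 technical deviations. Txn1, the cytosolic thioredoxin, read 133.8 and 141.5 (1.06-fold higher), and the mitochondrial reductase Txnrd2 read 2.69 and 2.95 (1.10-fold higher). Txnip, which binds and inhibits thioredoxin and restrains glucose uptake, read 29.0 and 19.6 (1.48-fold lower). Txnrd3, a reductase best known from testis, read 11.1 and 8.17 (1.36-fold lower). Thus the 2 thioredoxins, Txnrd1 and Txnrd2 were higher, while the inhibitor and the third reductase were lower, each on 1 probe. The differences of Txn1 and Txnrd2 lay within 2 technical deviations, and those of Txnip and Txnrd3 lay beyond, as did 24.1% of all named genes at this level. With 1 animal per genotype none of these directions is settled.

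Thioredoxin-like genes with other roles lay within 1.19-fold. Txndc12, of the endoplasmic reticulum, read 7.05 and 8.21 (1.17-fold higher), and Txndc9 read 44.9 and 37.8 (1.19-fold lower). Txndc17 (29.7 and 30.7), the proteasome-associated Txnl1 (30.8 and 28.7) and the protein disulfide isomerase Txndc5 (10.9 and 10.7) were closer still. Txndc11 was the only gene of the set with 2 probes. They read 12.3 and 11.8 on one and 4.08 and 4.17 on the other, or log2 differences of -0.06 and 0.03. Over all 12 genes of the Txn group at this level 6 were higher and 6 lower, beside 59.9% of all named genes lower.

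The 3 genes taken by name, all known as NRF2 targets, were each lower, with a median of -0.37. Hmox1, heme oxygenase 1, which breaks down heme, read 17.3 in the control kidney and 9.80 in Mxi1 -/- (1.77-fold lower). Nqo1, a quinone reductase, read 2.27 and 1.75 (1.30-fold lower). Ephx1, the microsomal epoxide hydrolase, read 16.2 and 13.6 (1.19-fold lower). The differences of Hmox1 and Nqo1 lay beyond 2 technical deviations, and that of Ephx1 lay within them. Hmox1 had the largest lower difference of the 48 genes. It is also expressed by macrophages, whose 10 measured markers summed to 44.7 in the control kidney and 59.1 in Mxi1 -/-, with 6 of the 7 at or above the median level higher and 1 of the 10 under both floors. Adipocyte markers summed to 416.8 and 214.6, with 8 of 8 at that level lower, and markers of urothelium and stratified epithelium summed to 45.2 and 20.2, with 7 of 8 lower. No marker of these 2 lists was under both floors. Fewer cells of a type and less RNA per cell cannot be told apart in whole kidney, and the part of these cell types in the differences was not tested.

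**Figure D3:**
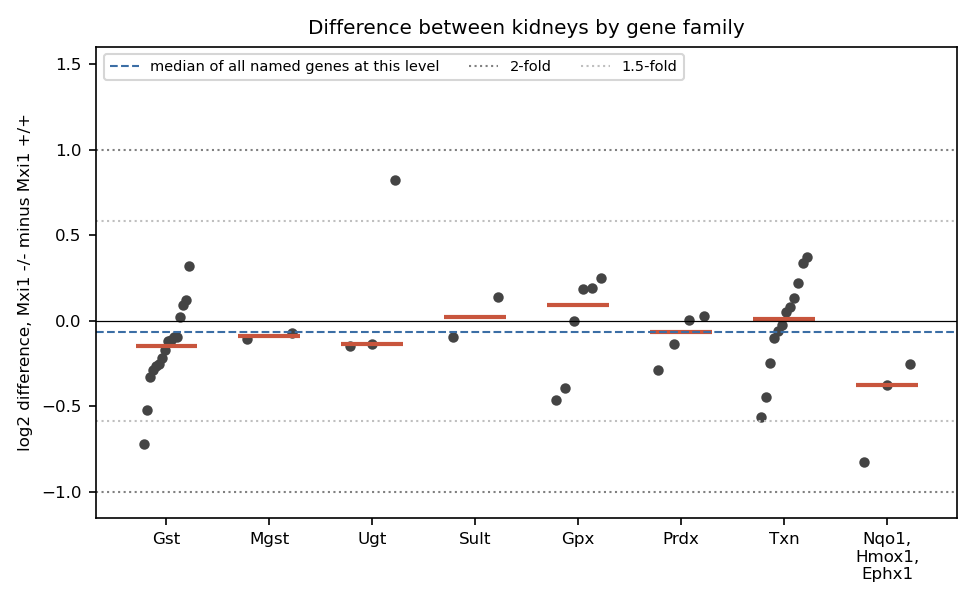
Log2 difference, Mxi1 -/- minus Mxi1 +/+, of each of the 48 genes by family (points), with the family median (thick line), the median of all named genes at this level (dashed) and the 2-fold and 1.5-fold lines (dotted). All points lie inside the 2-fold lines, and 3 points lie outside the 1.5-fold lines.

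The 21 genes below the median level gave little that can be read. Their intensities ran from -0.0136 to 1.12. Only 13 were above the noise floor in both kidneys, 5 of them higher and 8 lower; 7 were under the floor in 1 kidney, and Ugt2b37 was under it in both. Of the 20 with a log2 difference 4 were at least 2-fold higher and 4 lower, beside 12.8% and 11.3% of all 4248 named genes below that level, and 5 of those 8 involved a reading under a floor. The other 3 were Sult4a1, a brain sulfotransferase, which read 0.137 in the control kidney and 0.348 in Mxi1 -/- (2.55-fold higher), Sult2b1, a cholesterol sulfotransferase, at 0.582 and 0.281 (2.07-fold lower), and Ugt2a3 at 0.503 and 0.244 (2.06-fold lower). With the floor in place of the dim reading, Txnl4b was at least 4.20-fold higher, Sult1e1 at least 2.20-fold higher and the epithelial peroxidase Gpx2 at least 2.13-fold higher. Sult2a2 was at least 2.40-fold lower, Ugt8a at least 1.05-fold lower and Ugt2b1 at least 1.01-fold lower. Each bound takes the brighter reading as exact. Ugt8a and Ugt2b1 read only 0.163 and 0.158 in the control kidney, so their direction is not settled. Txndc8, at 0.146 and under the floor, has no fold. Txndc2, a sperm thioredoxin, read 0.103 and 0.186, just above both floors (1.81-fold higher). The other 9 genes above both floors, Gpx7, Gstm6, Gstp3, Gstt4, Sult1c1, Sult3a1, Sult5a1, Txnl4a and Ugt2a1, differed by 1.06-fold to 1.48-fold.

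Genes that work with these enzymes were read from 8 lists, and no member that reached the median level was past 2-fold. Of all 5737 named genes at that level 0.558% were at least 2-fold higher and 1.39% lower. At 1.5-fold these shares were 2.41% and 5.26%. In all, 59.9% of the named genes were lower, with a median of -0.06, and the list counts below are to be read beside these shares. The NRF2 gene Nfe2l2 read 31.6 in the control kidney and 24.3 in Mxi1 -/- (1.30-fold lower). Its inhibitor Keap1 read 7.66 and 8.02 (1.05-fold higher), and the ubiquitin ligase parts Cul3 (30.2 and 32.6) and Rbx1 (77.2 and 69.1) differed by 1.08-fold and 1.12-fold. The NRF2 partner Mafg read 1.58 and 1.72. Of 6 such regulators 4 were higher and 2 lower (median 0.04). Among 4 xenobiotic receptor genes the largest difference was that of Arnt, the partner of the dioxin receptor, at 1.72 and 2.33 (1.35-fold higher).

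Genes that make and recycle glutathione were mixed, with 7 of 15 higher and 8 lower (median -0.10). Gss, which completes glutathione synthesis, read 55.1 in the control kidney and 90.0 in Mxi1 -/- (1.64-fold higher). Dpep1, a brush-border dipeptidase that ends glutathione breakdown and is also a proximal tubule marker, read 18.8 and 28.3 (1.51-fold higher). These were the 2 genes of the list past 1.5-fold. Gclm, the modifier subunit of the first synthetic enzyme, read 33.2 and 35.2, and glutathione reductase Gsr read 1.31 and 1.51. The lower end was held by Ggt6 (3.85 and 3.27) and Esd (77.8 and 67.0).

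Of 11 NADPH-supplying genes 8 were lower and 3 higher (median -0.11), beside 59.9% of all named genes lower. Me3, the mitochondrial NADP malic enzyme, read 9.09 in the control kidney and 4.80 in Mxi1 -/- (1.89-fold lower). The folate enzymes Mthfd1 (3.35 and 2.44) and Mthfd2 (1.88 and 2.75) ran in opposite directions, at 1.37-fold lower and 1.46-fold higher. Pgls, of the pentose phosphate pathway, was 1.23-fold higher. No NADPH gene other than Me3 was past 1.5-fold.

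Other antioxidant genes were lower in 10 of 14 cases (median -0.10), beside 59.9% of all named genes, and none was past 1.5-fold. Catalase (Cat) read 212.9 in the control kidney and 226.6 in Mxi1 -/-, and the mitochondrial superoxide dismutase Sod2 read 31.9 and 29.1. The stress-responsive sestrin Sesn3 read 5.81 and 4.22 (1.38-fold lower). The selenoprotein methionine sulfoxide reductase Msrb1 read 63.2 and 46.8 (1.35-fold lower) and the selenium carrier Selenop 98.2 and 80.3 (1.22-fold lower). Msrb2 was 1.21-fold lower. With Gpx1 also lower and Gpx3 and Gpx4 higher, genes of selenoproteins did not all lie on 1 side.

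Among other conjugating enzymes 9 of 13 genes were lower (median -0.08), beside 59.9% of all named genes. As3mt, which methylates arsenic, read 11.5 in the control kidney and 7.12 in Mxi1 -/- (1.61-fold lower). The N-acetyltransferase Nat2 was 1.40-fold lower and the glycine conjugating enzyme Glyat read 125.4 and 100.1 (1.25-fold lower). Nat8, which acetylates cysteine conjugates to mercapturates, read 21.5 and 27.9 (1.30-fold higher). Of 5 genes that supply or remove the conjugated groups, Gusb (beta-glucuronidase) was 1.27-fold lower, Papss2 (sulfate donor synthesis) 1.26-fold lower, and Ugdh, which makes UDP-glucuronic acid, read 21.1 and 21.8.

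In the list of heme and quinone partners 7 of 15 genes were higher and 8 lower (median -0.01). The heme-making enzymes Cpox and Fech differed in direction. Cpox read 4.31 in the control kidney and 6.63 in Mxi1 -/- (1.54-fold higher) and Fech read 13.1 and 8.93 (1.47-fold lower). Akr1b8, an aldo-keto reductase, read 1.62 and 0.854 (1.89-fold lower), and Akr7a5, another, read 58.4 and 79.4 (1.36-fold higher).

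**Figure D4:**
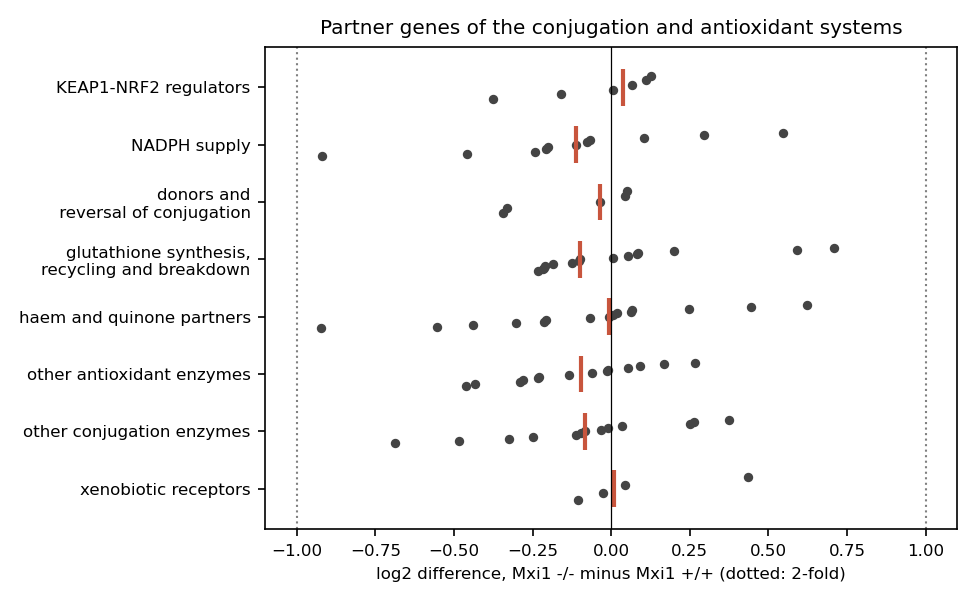
Log2 difference, Mxi1 -/- minus Mxi1 +/+, of each partner gene at or above the median level in 8 lists (points), with the list median (thick line); the dotted lines mark 2-fold. All list medians lie between -0.11 and 0.04.

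Letters of 2 regulatory motifs were looked for in the RefSeq promoter windows (assembly GRCm38.p6, 250 bases before to 50 after each start) of the 61 genes of the set that have one. The first is the core of the antioxidant response element, TGACNNNGC, to which NRF2 with its small MAF partners is known to bind. The second is the E-box CACGTG, which reads the same on both strands and to which MAX complexes bind. Both strands were searched. The antioxidant core stood in the windows of 9 of the 61 genes (14.8%, exact 95% interval from 6.98% to 26.2%), and in those of 14.0% of all 27025 genes with a window. The E-box stood in 4 of the 61 (6.56%, interval from 1.82% to 15.9%) and in 8.09% of all genes. All genes here were not limited to those named on the array, so the 2 sets are not matched. A match is a run of letters and not a measured binding site.

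Stretches from genes at or above the median level are shown so that their letters can be set beside the readings. Each runs 5′ to 3′ on the strand of its gene, and capitals mark the antioxidant core or its reverse complement.
Txnrd1 (chr10:82859098-82859138, plus strand): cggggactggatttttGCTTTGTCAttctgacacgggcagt
Prdx1 (chr4:116685450-116685490, plus strand): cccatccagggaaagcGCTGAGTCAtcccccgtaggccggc
Mgst1 (chr6:138140455-138140495, plus strand): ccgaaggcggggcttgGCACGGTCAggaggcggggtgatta
Gsta3 (chr1:21240448-21240488, plus strand): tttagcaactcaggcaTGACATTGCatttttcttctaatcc
Gstm7 (chr3:107931719-107931759, minus strand): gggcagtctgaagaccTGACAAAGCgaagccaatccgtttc
Gstm5 (chr3:107895796-107895836, plus strand): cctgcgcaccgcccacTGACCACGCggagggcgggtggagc

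The genes that carry the antioxidant core did not all lie on 1 side. Their differences are to be read beside the 59.9% of all named genes at or above the median level that were lower. Of the carriers shown, Txnrd1 had a log2 difference of 0.34 and Prdx1 of 0.03. Mgst1 stood at -0.11, Gsta3 at -0.25, Gstm7 at -0.29 and Gstm5 at -0.33. Not shown are Txndc11 (-0.06) and Txndc5 (-0.03), which also carry the core, and Txndc2, which lay below the median level. Of the genes with the core at that level only Txnrd1 lay beyond 2 technical deviations, and only slightly. Hmox1 and Nqo1 had no such letters in these windows, which says nothing of sites elsewhere. In the E-box genes capitals mark the E-box.
Gpx6 (chr13:21312066-21312103, plus strand): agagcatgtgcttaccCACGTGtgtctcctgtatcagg
Prdx4 (chrX:155338491-155338528, minus strand): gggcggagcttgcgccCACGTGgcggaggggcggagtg
Txndc9 (chr1:37997344-37997381, minus strand): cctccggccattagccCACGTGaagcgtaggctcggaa

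Here too the readings lay on both sides, with log2 differences of 0.18 for Gpx6, -0.14 for Prdx4 and -0.25 for Txndc9. The fourth gene with an E-box, Txndc5, stood at -0.03.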

How the data were processed

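Kidney RNA was cleaned on columns, DNase-treated and made into labelled cRNA with a kit for CodeLink arrays, per the labels' protocols. The values deposited by the authors are linear intensities of 20289 probes. Which background correction and scaling made them is not given in the sources used here. Array medians were 0.929 (Mxi1 +/+) and 0.935 (Mxi1 -/-), and -9999 was read as missing (60 and 39 places). A platform annotation named 10349 probes; the other 9940 are unnamed, so a gene absent here may still be on the array. All 70 probes of the set matched RefSeq gene identifiers.

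Intensities above 0 in both arrays (19663 probes) were taken to log2 without a pseudocount and centred on each array's median. A gene with several probes took the one with the highest mean level. The noise floor is 3 times the root mean square of values below 0. Where 1 of 2 readings lay under its floor, the fold is a lower bound against the floor, with the other reading taken as exact. The number of arrays, 1 per genotype, limits the precision, and no test was made. Shares past a fold are read against all 5737 named genes at or above the median level. All genes of the set could be named, and of each partner list up to 4 at that level with the largest differences, plus Nfe2l2, Keap1, Gclm, Gsr, Cat, Sod2 and Mxi1. Members, lists and rules were chosen with earlier results of these data known. The procedure was tested on simulated data with known differences. Python 3.11.15, NumPy 2.4.6, pandas 2.3.3, statsmodels 0.14.6 and matplotlib 3.10.9 were used.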

Additional observations from a re-analysis of the deposited data

How the results depend on the processing

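Tried in turn were quantile normalization, a lowess fit on mean level, no centring, a pseudocount of the array median, values raised to the noise floor, the mean of a gene's probes, no filter on level and a filter at the 75th percentile. With no filter on level 4 genes of the set were at least 2-fold higher and 4 lower, in place of 0 and 0 (5.77% and 5.59% of all genes at any level), and 7 were at least 1.5-fold higher and 6 lower, in place of 1 and 2 (10.8% and 11.9% of all genes). The same setting moved the median of the Gst pi class to -0.33, from -0.10, since it adds Gstp3. The filter at the 75th percentile left 2 Ugt genes and moved their median to 0.34, from -0.14. In the 100 bases before the start alone, 4.92% of the genes held the antioxidant core and 1.64% the E-box, beside 5.50% and 3.70% of all genes searched. Over the 6 alternatives run on single genes, 44 of the 48 genes kept their direction; Gpx5, Prdx2, Txndc11 and Txndc5, all close to 0, did not. The 2-fold counts at the median level stayed at 0 under each alternative that kept a level filter. The share of the set that was lower ran from 58.3% (quantile and lowess, with 52.4% and 52.8% of all genes lower) to 67.3%. The latter came with the pseudocount or the floor, with 61.2% and 62.2% of all genes lower. The pseudocount, which shrinks differences by construction, moved Akr1b8 to -0.50 from -0.92. Over the settings run on single genes Mxi1, the check of the labels, ran from -1.36 to -0.98 and stayed lower. Nat2 ran from -0.50 to -0.31 and Mthfd2 from 0.37 to 0.58. The medians of the Txn, Sult and Gst omega groups and of 3 partner lists (glutathione, donors, and heme and quinone partners) changed sign under some alternatives. No paired analysis was possible because each genotype has 1 animal.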
